A study of Mus musculus with 10 samples.

Results

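The comparison described here set Dgcr8_KO cells against Drosha_KO cells, the mutants that each lack one subunit of the Microprocessor. Its members are the 4 libraries labelled with these knockouts, 2 per genotype, out of 10 in the series, and the measure was the count of every mature miRNA entry as a share of its library's total. All libraries came from E14 cells, mouse embryonic stem cells of 129/Ola background grown on gelatine in serum and LIF, as did the 2 wild-type (WT) libraries. Dgcr8_KO cells are labelled as knocked out for Dgcr8, Drosha_KO cells as knocked out for Drosha, and WT cells carry no engineered change that the labels name. The remaining 4 libraries, Dicer_KO and Ago12_KO (Ago1 and Ago2 double knockout), entered here in the estimate of the spread and in the filter that chose the entries to test. The labels do not say whether the replicates of a genotype were separate clones or repeat cultures of 1 clone, so p-values measure the spread between these libraries, which may be technical.

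Primary miRNA transcripts are cut in the nucleus by the Microprocessor, in which Drosha is the RNase III enzyme and Dgcr8 the RNA-binding partner that grips the stem and apical loop of the hairpin. The excised hairpin is exported and cut by Dicer into a duplex, from which one arm, called 5p or 3p by its place in the hairpin, is usually kept by an Argonaute protein. Some hairpins do without one or both subunits: mirtrons are released by splicing, some hairpins are themselves short capped transcripts, and others are cut from snoRNAs or tRNAs. In mouse embryonic stem cells the miR-290 to miR-295 cluster supplies a large part of the miRNA pool and promotes the rapid cell cycle of these cells.

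Total counts were 289539 and 408654 in Dgcr8_KO, against 39511 and 40306 in Drosha_KO and 2357868 and 1943868 in WT, so that Dgcr8_KO was on average 8.75 times deeper than Drosha_KO. These totals cover miRNA entries only, and fewer reads sequenced and fewer miRNAs per cell cannot be told apart, so every value below is a share of what was counted. Levels are given in CPM, that is per 1000000 counts of the library, where a single count is worth 3.45 and 2.45 CPM in Dgcr8_KO and 25.3 and 24.8 CPM in Drosha_KO. Intervals and floors cover counting error only. One library stood apart: the imprinted Dlk1-Dio3 cluster held 22.2 and 22.7% of the counts in Dgcr8_KO, but 0.0152% in Drosha_KO replicate 1 and 10.9% in Drosha_KO replicate 2. Chi-square per degree of freedom between replicates was 3.88 in Dgcr8_KO and 31.8 in Drosha_KO. The sample descriptions carry date-like codes for Dgcr8_KO and none for Drosha_KO, so any batch and the genotype cannot be told apart.

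The mature sequences that the results turn on are given 5′ to 3′ from RefSeq (GRCm38.p6), with the seed (bases 2 to 8) in capitals. The first set holds entries called lower in Dgcr8_KO, with both arms of miR-3068.
miR-3068-5p: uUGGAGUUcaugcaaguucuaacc
miR-3068-3p: gGUGAAUUgcaguacuccaaca
miR-24-3p: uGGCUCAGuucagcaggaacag
miR-7a-5p: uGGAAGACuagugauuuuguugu
miR-29a-3p: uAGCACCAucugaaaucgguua
miR-29b-3p: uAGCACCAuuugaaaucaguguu
miR-138-5p: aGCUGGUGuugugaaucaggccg
miR-146b-5p: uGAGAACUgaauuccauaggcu
The next set holds entries that were higher in Dgcr8_KO.
miR-16-5p: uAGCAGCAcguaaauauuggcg
miR-301a-3p: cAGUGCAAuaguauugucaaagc
miR-127-5p: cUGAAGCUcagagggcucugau
The last set holds seed relatives and cluster neighbours, some of which went opposite ways between the mutants. The let-7 pair shares the seed GAGGUAG, the miR-92 pair the seed AUUGCAC, miR-290a-5p and miR-293-5p the seed CUCAAAC, and miR-294-3p and miR-295-3p the seed AAGUGCU.
let-7c-5p: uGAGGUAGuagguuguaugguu
let-7g-5p: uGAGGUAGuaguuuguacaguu
miR-92a-3p: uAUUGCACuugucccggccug
miR-92b-3p: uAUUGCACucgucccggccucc
miR-290a-5p: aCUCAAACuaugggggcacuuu
miR-293-5p: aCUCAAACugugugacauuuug
miR-294-3p: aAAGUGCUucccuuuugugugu
miR-295-3p: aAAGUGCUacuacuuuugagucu
miR-450a-5p: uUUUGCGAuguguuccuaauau
miR-503-5p: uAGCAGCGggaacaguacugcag

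A minority of the tested miRNAs were called as holding different shares of the 2 mutant pools, some by large factors and in both directions. Entries that were not called are not thereby shown to hold equal shares. Of 1907 entries, 942 had a count in these 4 libraries, 496 of them in both genotypes, 410 in Dgcr8_KO alone with a median of 2 counts, and 36 in Drosha_KO alone with at most 4 counts. After a filter on low counts, 481 entries were tested with edgeR's quasi-likelihood test, in which 27 were higher and 40 lower in Dgcr8_KO than in Drosha_KO at an adjusted p under 0.05. These were 13.9% of all tested (5.61% higher and 8.32% lower), and 414 were not called. All 67 called entries had replicates that did not overlap between the genotypes, as had 307 of the 481 tested (63.8%). The median log2 fold change over the 481 was 0.13, and 0 when entries undetected in a genotype were set at their bound. In Drosha_KO 87 tested entries were undetected, in Dgcr8_KO 1, and 24 in both, Drosha_KO being the shallower. The filter ran over all 5 genotypes, so those 24 were tested on their levels in other genotypes, and they count in the shares called and in the medians. With only the libraries of both mutants, 264 entries were tested, of which 23 were higher and 45 lower, with a median of 0.03. Counts of calls depended on the scaling: TMM factors gave 49 higher and 25 lower (66.2% of calls higher, against 40.3% with column totals), and library sizes from mirtrons and capped hairpins (mirtron-based sizes below) gave 68 and 20 (77.3%). Leaving Dlk1-Dio3 out of the totals gave 36 higher and 35 lower, while DESeq2's size factors gave 24 and 53 in edgeR and 31 and 75 in DESeq2 itself. Single libraries mattered as well, with 9 higher and 20 lower without Dgcr8_KO replicate 1, 10 and 19 without Dgcr8_KO replicate 2, and 48 and 43 without Drosha_KO replicate 2. The entries called in the same direction in all 22 alternatives tried were 7 higher and 13 lower.

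**Figure D1:**
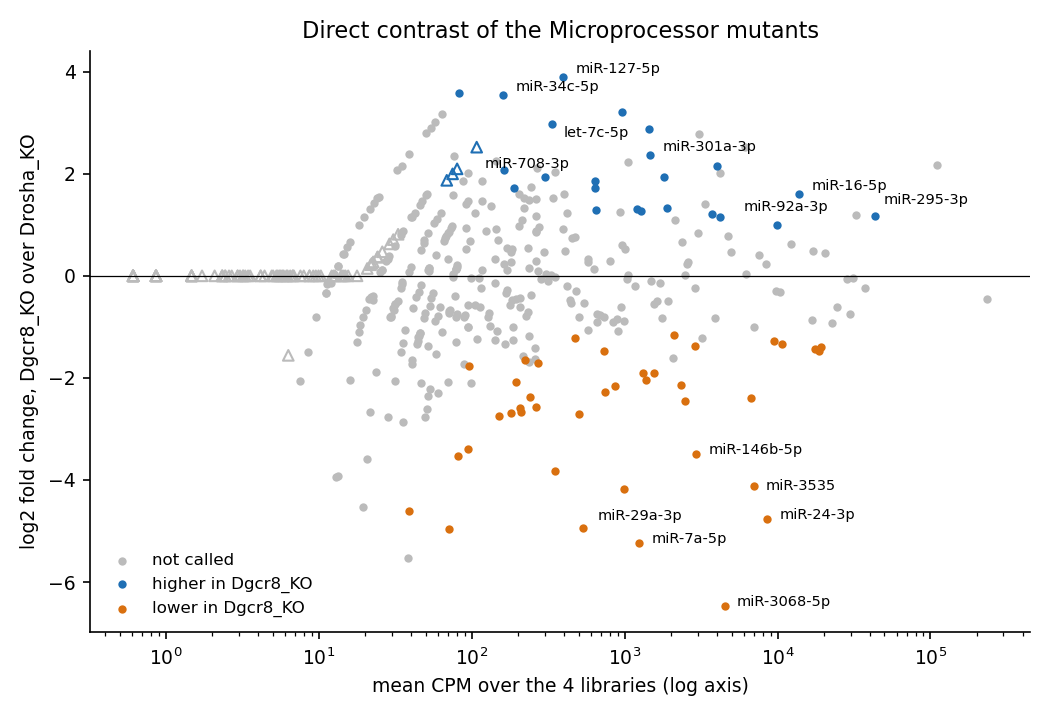
Log2 fold change of Dgcr8_KO over Drosha_KO against the mean CPM over the 4 libraries (log axis) for the 481 tested entries. Blue points are the 27 entries called higher and orange points the 40 called lower; triangles are entries undetected in a genotype, drawn at the bound from 3 counts over the group; miR-3068-5p lies lowest at -6.47.

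The 13 entries lower in Dgcr8_KO under every setting were miR-3068-5p, miR-7a-5p, miR-29a-3p, miR-24-3p, miR-138-5p, miR-3535, miR-6239, miR-146b-5p, miR-293-3p, miR-293-5p, miR-200c-3p, miR-1981-5p and miR-290a-5p. miR-3068-5p, from a hairpin in an intron of Alkbh1 (GRCm38 chromosome 12, 87437679 to 87437757, minus strand), had 89.8 and 110.1 CPM in Dgcr8_KO, against 11009.6 and 6823 CPM in Drosha_KO. With 2.73 ± 0.944 CPM (SD, n = 2) in WT, this arm was scarce in WT, more frequent in Dgcr8_KO and a major species in Drosha_KO. For miR-3068-5p the log2 fold change was -6.47 ± 0.44 SE (adjusted p = 3.39e-05 by edgeR). GENCODE M21 types the Mir3068 locus itself as a snoRNA. miR-24-3p comes from hairpins on chromosome 13 (63301208 to 63301275, beside miR-27b) and chromosome 8 (84208815 to 84208921). It had 591 and 626 CPM in Dgcr8_KO, against 18375 and 14787 CPM in Drosha_KO, with 453 ± 42.9 CPM (SD, n = 2) in WT. For miR-24-3p the log2 fold change was -4.77 ± 0.37 SE (adjusted p = 2.39e-05 by edgeR). Both Drosha_KO libraries stood far above the Dgcr8_KO libraries, and the Dgcr8_KO share was near that of WT. The passenger arms of its hairpins were sparse and not called. miR-24-2-5p had 48 and 64 counts (166 and 157 CPM) in Dgcr8_KO, against 2 and 5 counts (50.6 and 124 CPM) in Drosha_KO. miR-24-1-5p had 0 and 1 counts (0 and 2.45 CPM) in Dgcr8_KO, against 3 and 3 counts (75.9 and 74.4 CPM) in Drosha_KO.

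miR-7a-5p is a miRNA of neuronal and endocrine cells with a hairpin in an intron of Hnrnpk (chromosome 13, 58392779 to 58392886) and another on chromosome 7 (78888277 to 78888373). It had 62.2 and 66.1 CPM in Dgcr8_KO, against 2379 and 2456 CPM in Drosha_KO. For miR-7a-5p the log2 fold change was -5.23 ± 0.49 SE (adjusted p = 4.77e-05 by edgeR). Every Drosha_KO library exceeded every Dgcr8_KO library, and the WT libraries lay between them at 197 ± 8.99 CPM (SD, n = 2). The miR-29 family, which targets collagens and DNA methyltransferases, was lower in Dgcr8_KO with both members tested. miR-29a-3p had 41.4 and 26.9 CPM in Dgcr8_KO, against 936 and 1141 CPM in Drosha_KO. For miR-29a-3p the log2 fold change was -4.95 ± 0.47 SE (adjusted p = 0.000103 by edgeR). miR-29b-3p, encoded beside it on chromosome 6 (31063023 to 31063093) and again on chromosome 1 (195037040 to 195037120), had 69.1 and 48.9 CPM in Dgcr8_KO, against 506 and 198 CPM in Drosha_KO. For miR-29b-3p the log2 fold change was -2.59 ± 0.63 SE (adjusted p = 0.0181 by edgeR, called in 18 of 22 alternatives). Both Drosha_KO libraries were higher for each. miR-138-5p, a brain-enriched miRNA, had 76.0 and 127 CPM in Dgcr8_KO, against 1164 and 2580.3 CPM in Drosha_KO. The groups did not overlap, although the replicates of each genotype differed from each other. For miR-138-5p the log2 fold change was -4.18 ± 0.48 SE (adjusted p = 0.000188 by edgeR). miR-146b-5p, a regulator of NF-κB signalling, had 477 and 487 CPM in Dgcr8_KO, against 5695 and 5136 CPM in Drosha_KO. For miR-146b-5p the log2 fold change was -3.49 ± 0.37 SE (adjusted p = 0.000103 by edgeR).

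In the epithelial miR-200 family the 3p arms of miR-200a, miR-200b and miR-200c were lower in Dgcr8_KO. The other 5 of 8 tested entries were not called: the 5p arms of miR-200a and miR-200b, both arms of miR-141, and miR-429-3p. Their fold changes lay on either side of no change, as for miR-200a-5p (-0.33) and miR-141-3p (0.98). miR-200c-3p had 13 and 21 counts (44.9 and 51.4 CPM) in Dgcr8_KO, against 15 and 10 counts (379.6 and 248 CPM) in Drosha_KO. For miR-200c-3p the log2 fold change was -2.69 ± 0.48 SE (adjusted p = 0.00419 by edgeR). miR-200b-3p (-2.08, edgeR adjusted p = 0.00781, called in 18 of 22 alternatives) and miR-200a-3p (-1.78, edgeR adjusted p = 0.047, called in 8 of 22 alternatives) lie together on chromosome 4. Other lower entries rested on few counts. miR-181d-5p had 0 and 3 counts (0 and 7.34 CPM) in Dgcr8_KO, against 7 and 4 counts (177 and 99.2 CPM) in Drosha_KO, a level 32.1 times lower in Dgcr8_KO with a 95% counting interval from 8.47 to 179. For miR-181d-5p the log2 fold change was -4.96 ± 0.82 SE (adjusted p = 0.00225 by edgeR, called in 20 of 22 alternatives). miR-324-5p had 1 and 1 counts (3.45 and 2.45 CPM) in Dgcr8_KO, against 3 and 3 counts (75.9 and 74.4 CPM) in Drosha_KO (-4.61, edgeR adjusted p = 0.00686, called in 19 of 22 alternatives), 26.2 times lower with an interval from 4.69 to 266. miR-3062-5p (-3.38), miR-503-5p (-3.53), miR-344d-3p (-2.75) and miR-8112 (-2.67) had at most 21 counts in any of the 4 libraries, and each lost its call when a single Dgcr8_KO or Drosha_KO library was left out. The counts of miR-344d-3p were all multiples of 3, and those of miR-3084-3p (-2.56, edgeR adjusted p = 0.0224, called in 16 of 22 alternatives) multiples of 2.

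**Figure D2:**
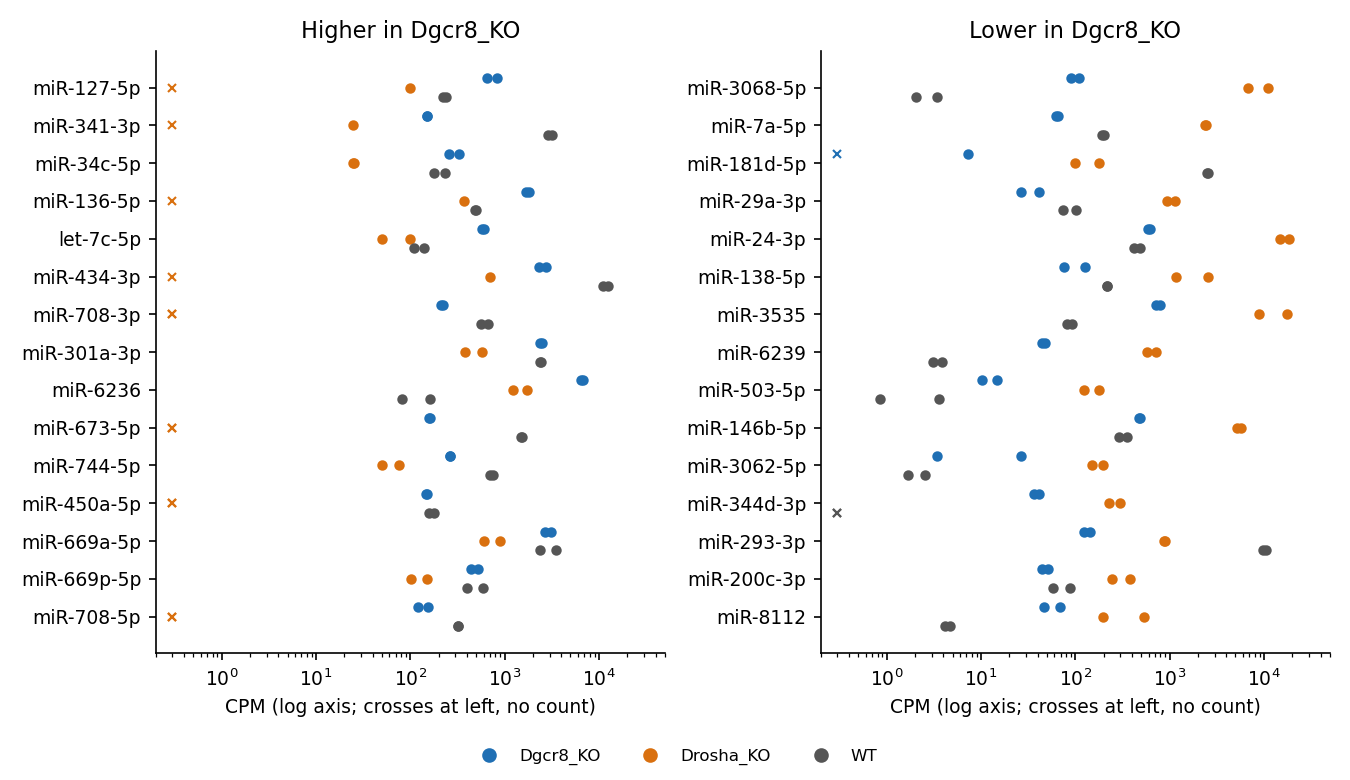
CPM in each library (log axis, 1 point per library, crosses where there was no count) of Dgcr8_KO, Drosha_KO and WT for the 15 called entries with the highest fold change (left) and the 15 with the lowest (right). Blue Dgcr8_KO points lie right of the orange Drosha_KO points in the left panel and left of them in the right panel, as for miR-3068-5p with 89.8 and 110.1 CPM in Dgcr8_KO, against 11009.6 and 6823 CPM in Drosha_KO.

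The 7 entries higher in Dgcr8_KO under every setting were miR-127-5p, miR-34c-5p, let-7c-5p, miR-301a-3p, miR-6236, miR-16-5p and miR-708-3p. The most abundant, miR-16-5p, restrains G1 cyclins and is encoded on chromosomes 14 (61631880 to 61631972, in Dleu2) and 3 (69009902 to 69009996, in Smc4). It had 21248 and 20289 CPM in Dgcr8_KO, against 7137 and 6500.3 CPM in Drosha_KO. For miR-16-5p the log2 fold change was 1.61 ± 0.26 SE (adjusted p = 0.00218 by edgeR). Its Dgcr8_KO share was close to the WT share of 24594 ± 1362 CPM (SD, n = 2), and both Drosha_KO libraries were lower. miR-301a-3p, in an intron of Ska2 (chromosome 11, 87113004 to 87113089), had 2383 and 2503 CPM in Dgcr8_KO, against 379.6 and 571 CPM in Drosha_KO, with 2408 ± 39.5 CPM (SD, n = 2) in WT. For miR-301a-3p the log2 fold change was 2.36 ± 0.36 SE (adjusted p = 0.00128 by edgeR). Its seed relatives did not reach a call: miR-130a-3p had a log2 fold change of 0.66 and miR-301b-3p of 0.92. let-7c-5p had 168 and 246 counts (580.2 and 602 CPM) in Dgcr8_KO, against 2 and 4 counts (50.6 and 99.2 CPM) in Drosha_KO (log2 fold change 2.97 ± 0.52 SE, adjusted p = 0.00298 by edgeR), and no Drosha_KO library came near a Dgcr8_KO one. miR-34c-5p, a p53-responsive miRNA, had 96 and 105 counts (332 and 257 CPM) in Dgcr8_KO, against 1 and 1 counts (25.3 and 24.8 CPM) in Drosha_KO, a ratio of 11.5 with a 95% counting interval from 3.14 to 95.5. For miR-34c-5p the log2 fold change was 3.54 ± 0.68 SE (adjusted p = 0.00526 by edgeR). miR-6236, an entry reported to overlap rRNA, had 6424 and 6781 CPM in Dgcr8_KO, against 1215 and 1737 CPM in Drosha_KO. For miR-6236 the log2 fold change was 2.16 ± 0.42 SE (adjusted p = 0.00526 by edgeR).

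Both arms of miR-708 were present in Dgcr8_KO and undetected in Drosha_KO. miR-708-3p had 64 and 86 counts (221 and 210.4 CPM) in Dgcr8_KO, against 0 and 0 counts (0 and 0 CPM) in Drosha_KO, at least 5.74-fold higher against the floor of 3 counts over the Drosha_KO libraries (edgeR adjusted p = 0.00128). miR-708-5p had 35 and 63 counts (121 and 154 CPM) in Dgcr8_KO, against 0 and 0 counts (0 and 0 CPM) in Drosha_KO, at least 3.66-fold higher (edgeR adjusted p = 0.00802). In WT cells both arms were more frequent still, at 613 ± 77.6 CPM (SD, n = 2) for miR-708-3p and 320.0 ± 1.47 CPM (SD, n = 2) for miR-708-5p. miR-673-5p (at least 4.28-fold, edgeR adjusted p = 0.00298, called in 21 of 22 alternatives) and miR-450a-5p (at least 3.99-fold, edgeR adjusted p = 0.0141, called in 19 of 22 alternatives) were undetected in Drosha_KO in the same way. Among abundant entries with smaller differences, miR-295-3p, miR-148a-3p and miR-92a-3p were higher by 1.17, 1.21 and 0.99 on the log2 scale, and each lost its call when either Dgcr8_KO library was left out. miR-669a-5p (1.94) and miR-669p-5p (1.94), from a repeated cluster in Sfmbt2, had counts that were all multiples of 12 and of 2, and neither was called once counts were divided by these numbers. miR-9-5p, a neural miRNA with counts in multiples of 3, was higher in Dgcr8_KO (1.72, edgeR adjusted p = 0.0179, called in 19 of 22 alternatives).

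Several close relatives went opposite ways between the mutants. Of 7 tested entries with the let-7 seed, let-7g-5p was lower in Dgcr8_KO while let-7c-5p was higher. let-7g-5p had 518 and 599.5 CPM in Dgcr8_KO, against 2404 and 1762 CPM in Drosha_KO. For let-7g-5p the log2 fold change was -1.90 ± 0.37 SE (adjusted p = 0.00565 by edgeR, called in 20 of 22 alternatives). For let-7g-5p both Drosha_KO libraries were above both Dgcr8_KO libraries, the reverse of let-7c-5p, and the call was lost with the mirtron-based sizes and without Dgcr8_KO replicate 1. let-7f-5p and let-7a-5p were not called, and their Dgcr8_KO replicates differed from each other. let-7f-5p had 523 and 110 counts (1806 and 269 CPM) in Dgcr8_KO, against 128 and 122 counts (3239.6 and 3027 CPM) in Drosha_KO. let-7a-5p had 198 and 29 counts (684 and 71.0 CPM) in Dgcr8_KO, against 40 and 22 counts (1012 and 546 CPM) in Drosha_KO. In the miR-92 pair, miR-92b-3p had 6134 and 6019.8 CPM in Dgcr8_KO, against 15439 and 15085 CPM in Drosha_KO. For miR-92b-3p the log2 fold change was -1.33 ± 0.26 SE (adjusted p = 0.00565 by edgeR, called in 18 of 22 alternatives). miR-92a-3p, a product of the miR-17-92 cluster, had 13166 and 13363 CPM in Dgcr8_KO, against 6251 and 7096 CPM in Drosha_KO. For miR-92a-3p the log2 fold change was 0.99 ± 0.21 SE (adjusted p = 0.00781 by edgeR, called in 19 of 22 alternatives). The groups did not overlap for either, but the calls moved with the scaling: miR-92b-3p was not called with TMM factors or the mirtron-based sizes, and miR-92a-3p was not called with DESeq2's size factors in edgeR. In the miR-34 family miR-34a-5p was lower and miR-34c-5p higher. miR-34a-5p had 725 and 595 CPM in Dgcr8_KO, against 2632 and 2283 CPM in Drosha_KO. For miR-34a-5p the log2 fold change was -1.90 ± 0.29 SE (adjusted p = 0.00128 by edgeR, called in 21 of 22 alternatives). In the miR-181 family miR-181d-5p was lower and miR-181c-5p higher. miR-181c-5p had 2673 and 2775 CPM in Dgcr8_KO, against 785 and 1389 CPM in Drosha_KO. For miR-181c-5p the log2 fold change was 1.32 ± 0.33 SE (adjusted p = 0.0181 by edgeR, called in 18 of 22 alternatives).

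On the X chromosome, a run of 6 hairpins (53047997 to 53054349, minus strand) held the lower miR-503-5p and the higher miR-450a-5p. miR-503-5p had 3 and 6 counts (10.4 and 14.7 CPM) in Dgcr8_KO, against 7 and 5 counts (177 and 124 CPM) in Drosha_KO. For miR-503-5p the log2 fold change was -3.53 ± 0.74 SE (adjusted p = 0.00895 by edgeR, called in 18 of 22 alternatives). miR-450a-5p, undetected in Drosha_KO, had 43 and 62 counts (149 and 152 CPM) in Dgcr8_KO and was called in 19 of 22 alternatives. The other 4 tested entries of this run were not called, among them miR-322-5p with a log2 fold change of -0.62. Grouping hairpins that lie within 10000 bases on one strand gave 29 clusters with more than 1 hairpin. Of these, 15 held a called entry and 6 held 2 or more. Only tested entries matched to a RefSeq hairpin were grouped. Called entries without a match, such as miR-181c-5p and miR-291a-3p, were left out, so these counts may be incomplete. Among the clusters found, calls in both directions occurred in 2, this run and the miR-290 to miR-295 group. In the other 4 clusters with 2 or more calls the called entries had 1 direction. They were miR-127-5p, miR-136-5p and miR-434-3p on chromosome 12, miR-200a-3p and miR-200b-3p on chromosome 4, miR-24-3p and miR-27b-3p (-1.22, edgeR adjusted p = 0.0155, called in 17 of 22 alternatives) on chromosome 13, and miR-29a-3p and miR-29b-3p on chromosome 6. Because miR-24-3p and miR-29b-3p also have hairpins on chromosomes 8 and 1, their counts cannot be assigned to the hairpin beside miR-27b or miR-29a.

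The embryonic stem cell cluster miR-290 to miR-295 (chromosome 7, 3218626 to 3220841) held 16.4 and 16% of the counts in Dgcr8_KO, against 21 and 20.5% in Drosha_KO and 18.5 and 19.8% in WT. The shares of the mutants did not overlap, but an exact two-sided permutation test of 2 against 2 libraries cannot give a p below 0.333, here and for every share below. Of its 14 tested entries 5 were lower in Dgcr8_KO, 1 was higher and 8 were not called, with a median of -1.06 against 0.13 over all tested, where 8.32% were lower and 5.61% higher. miR-295-3p, a carrier of the cell-cycle-promoting seed AAGUGCU, was the higher one, with 61584 and 58680.4 CPM in Dgcr8_KO, against 27359.5 and 26051 CPM in Drosha_KO. For miR-295-3p the log2 fold change was 1.17 ± 0.24 SE (adjusted p = 0.00686 by edgeR, called in 20 of 22 alternatives). Its seed relative miR-294-3p was not called (-0.75, edgeR adjusted p = 0.154), with 21772 and 22672 CPM in Dgcr8_KO, against 38217 and 36322 CPM in Drosha_KO. miR-290a-5p had 2186 and 2129 CPM in Dgcr8_KO, against 10832 and 11735 CPM in Drosha_KO. For miR-290a-5p the log2 fold change was -2.39 ± 0.29 SE (adjusted p = 0.00027 by edgeR). Both arms of miR-293 were lower. miR-293-3p had 36 and 59 counts (124 and 144 CPM) in Dgcr8_KO, against 35 and 35 counts (886 and 868 CPM) in Drosha_KO. For miR-293-3p the log2 fold change was -2.70 ± 0.31 SE (adjusted p = 0.000188 by edgeR). miR-293-5p had 65 and 115 counts (224 and 281 CPM) in Dgcr8_KO, against 59 and 39 counts (1493 and 968 CPM) in Drosha_KO. For miR-293-5p the log2 fold change was -2.28 ± 0.32 SE (adjusted p = 0.000905 by edgeR). Compared with 10099 ± 504 CPM (SD, n = 2) in WT for miR-293-3p, both mutants held little of this miRNA. miR-292a-3p (-1.48, edgeR adjusted p = 0.00262, called in 19 of 22 alternatives) and miR-291a-3p (-1.44, edgeR adjusted p = 0.00526, called in 18 of 22 alternatives) were lower with column totals but were not called with TMM factors or the mirtron-based sizes.

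**Figure D3:**
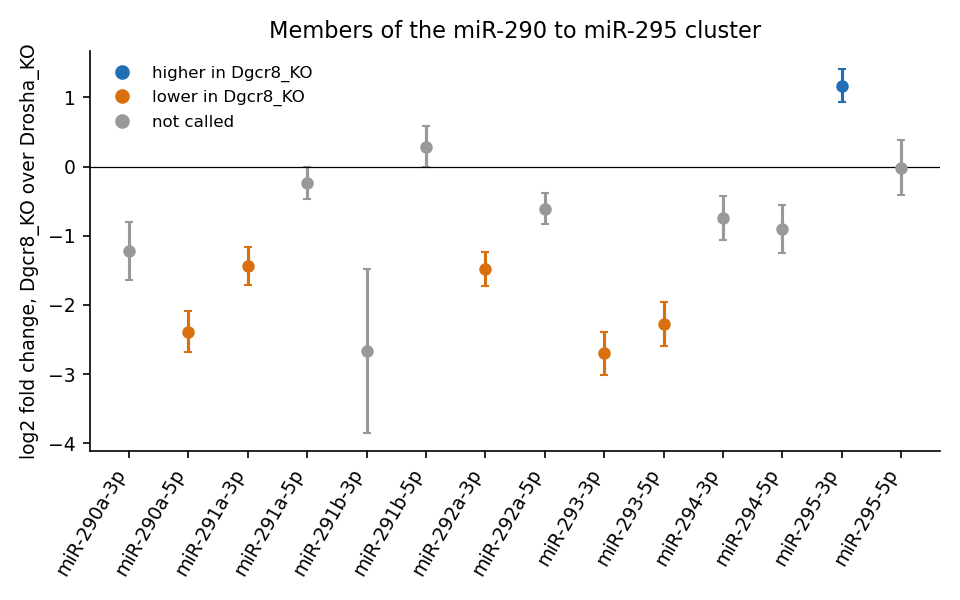
Log2 fold change of Dgcr8_KO over Drosha_KO for 14 tested entries of miR-290 to miR-295, with standard errors; blue is called higher, orange called lower and grey not called. miR-295-3p stands above 0 at 1.17, and the 5 lower entries run from -1.44 to -2.70.

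The ratio of 5p to 3p reads within a hairpin does not depend on library scaling. It was compared for 34 hairpins averaging 20 or more counts on each arm over the 4 libraries, a minimum that the deeper Dgcr8_KO could meet alone. miR-708 had no count on either arm in Drosha_KO, and miR-431, miR-434, miR-136 and miR-376b had none in Drosha_KO replicate 1. Their ratios there come only from the 0.5 added to each arm and carry no information. Of the 34 hairpins, miR-3068 was the only one called by limma (2.94% of those tested, with 10 at an unadjusted p under 0.05). In Dgcr8_KO it had 26 and 45 5p counts beside 358 and 563 3p counts, against 435 and 275 5p counts beside 143 and 89 3p counts in Drosha_KO. The 3p arm therefore dominated in both Dgcr8_KO libraries and the 5p arm in both Drosha_KO libraries. The mean log2 ratio of 5p to 3p was -3.69 in Dgcr8_KO, against 1.61 in Drosha_KO and -4.14 in WT, a difference between the mutants of -5.31 (SE 0.18, limma adjusted p = 0.00124). The 3p arm alone had 1236 and 1378 CPM in Dgcr8_KO, against 3619 and 2208 CPM in Drosha_KO. It was also lower in Dgcr8_KO (log2 fold change -1.16 ± 0.34 SE, adjusted p = 0.0454 by edgeR), a call lost with TMM factors and in 12 further alternatives. miR-1981 (-1.55), miR-181c (1.92) and miR-290a (-1.16) had the next lowest p-values and missed the threshold (limma adjusted p = 0.0572 for each). The count of such hairpins rests on few libraries: it was 0 without either Dgcr8_KO library, 17 without Drosha_KO replicate 1 and 18 without Drosha_KO replicate 2. Across 127 hairpins with both arms tested for abundance, 27 had 1 arm called and 3 both arms, always in the same direction.

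**Figure D4:**
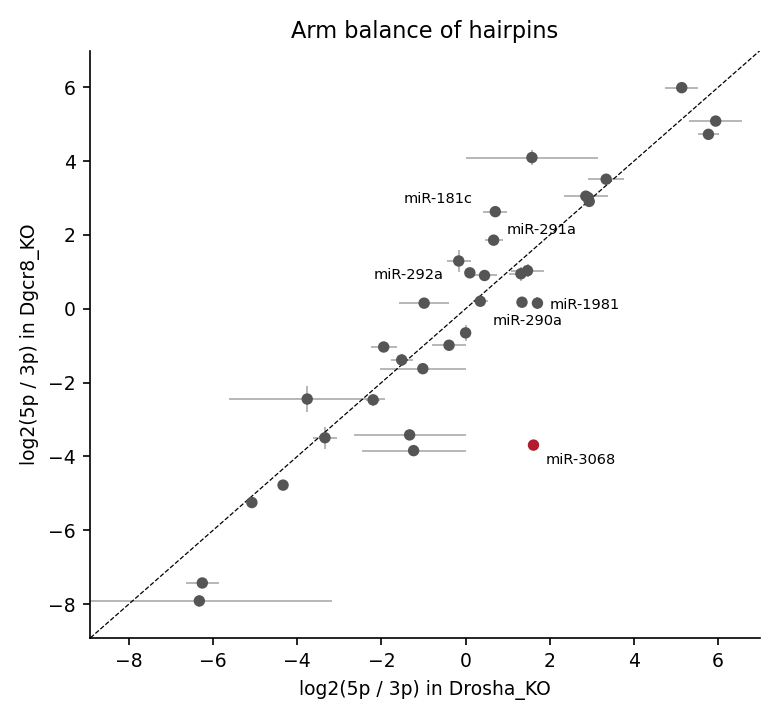
Mean log2 ratio of 5p to 3p counts in Dgcr8_KO (vertical axis) against Drosha_KO (horizontal axis) for the 34 hairpins tested; bars span the 2 libraries of each genotype around their mean and the dashed line marks equal ratios. miR-3068 (red) lies at -3.69 in Dgcr8_KO and 1.61 in Drosha_KO. A library without counts on either arm, as for miR-708 in Drosha_KO, entered its mean with a log2 ratio of 0.

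Mirtrons, capped hairpins and snoRNA-derived entries, which can be made without the Microprocessor, took smaller shares of both Dgcr8_KO libraries than of both Drosha_KO libraries. Mirtrons held 0.852 and 0.852% of the counts in Dgcr8_KO, against 2.11 and 1.61% in Drosha_KO and 0.0478 and 0.0563% in WT. Of 6 mirtron entries tested 1 was lower, miR-1981-5p, and the median was -0.94. Over all tested 8.32% were lower, a share from which 1 of 6 cannot be told. miR-1981-5p had 832 and 712 CPM in Dgcr8_KO, against 4885 and 3573 CPM in Drosha_KO. For miR-1981-5p the log2 fold change was -2.45 ± 0.38 SE (adjusted p = 0.00135 by edgeR). miR-877-5p, the most abundant of them, had 4642 and 4769 CPM in Dgcr8_KO, against 10934 and 7865 CPM in Drosha_KO and was not called (edgeR adjusted p = 0.0733). Capped or otherwise Drosha-bypassing hairpins held 2.55 and 2.37% of the counts in Dgcr8_KO, against 4.84 and 3.40% in Drosha_KO and 0.136 and 0.158% in WT. Of 5 tested 1 was lower (miR-344d-3p), which cannot be told from it either, and the median was -1.42. The mirtron and capped-hairpin medians stayed below 0 with TMM factors, at -0.27 and -0.78. miR-484, whose capped precursor is transcribed directly from its own start site, had 16281 and 14915 CPM in Dgcr8_KO, against 33586 and 25927 CPM in Drosha_KO (-0.93, edgeR adjusted p = 0.071), and miR-320-3p had a log2 fold change of -0.29. The hairpins of 20 tested entries lay in a gene that GENCODE M21 types as snoRNA or scaRNA, a class set after the data were seen, and held 0.711 and 0.727% of the counts in Dgcr8_KO, against 4.11 and 2.28% in Drosha_KO and 0.0490 and 0.0472% in WT. Of these 20, 5 were lower (miR-3068-3p, miR-3068-5p, miR-3084-3p, miR-3535 and miR-664-5p) and 1 was higher (miR-5121, in Snord33 and Rpl13a), beside 8.32% and 5.61% over all tested. Their median was -0.87, and it was -0.16 with TMM factors and 0.02 with the mirtron-based sizes. A shorter list by name, the one drawn in the plot of shares, held 0.335 and 0.348% of the counts in Dgcr8_KO, against 2.38 and 1.24% in Drosha_KO and 0.0213 and 0.0184% in WT, with 2 of 10 lower and a median of -0.87, or 0.02 with the mirtron-based sizes. miR-3535, in a snoRNA gene within Ncl, had 801 and 717 CPM in Dgcr8_KO, against 17539 and 8832 CPM in Drosha_KO and made up most of that list in Drosha_KO. For miR-3535 the log2 fold change was -4.12 ± 0.39 SE (adjusted p = 4.77e-05 by edgeR). miR-664-5p, from the snoRNA Snora36b, was lower too (-1.71, edgeR adjusted p = 0.0164, called in 17 of 22 alternatives). The list of entries reported to overlap tRNA or rRNA had 5 tested, of which 3 were higher and 1 lower, with a median of 1.16. Among them miR-5121 lies in a snoRNA gene and was counted above. Without miR-5121, a split made after the data were seen, 2 of 4 were higher (miR-6236 and miR-6240) and 1 lower. The median of these 4 was 0.14, or -0.02 with DESeq2's size factors in edgeR. The lower one, miR-6239, had 14 and 18 counts (48.4 and 44.0 CPM) in Dgcr8_KO, against 23 and 29 counts (582 and 719 CPM) in Drosha_KO (-3.82, edgeR adjusted p = 0.00027). miR-1983, an entry overlapping a tRNA, was not called (-0.87, edgeR adjusted p = 0.0587).

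**Figure D5:**
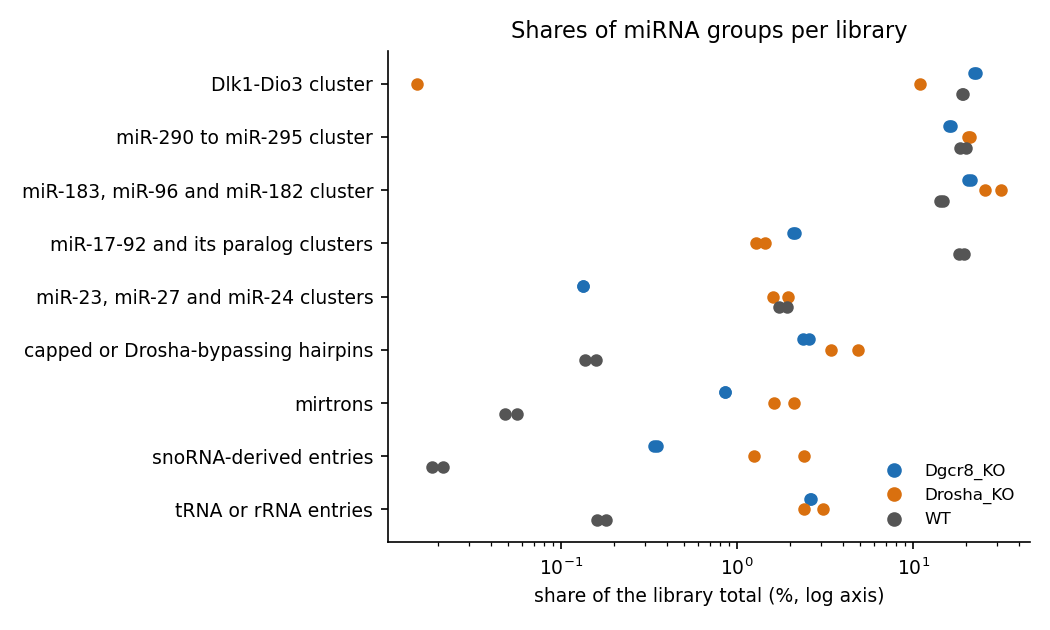
Share of the library total (percent, log axis) held by 9 groups of miRNAs (the tRNA or rRNA group as listed, with miR-5121), 1 point per library, in Dgcr8_KO, Drosha_KO and WT. The Dlk1-Dio3 points of Drosha_KO lie far apart at 0.0152 and 10.9%, and the miR-23, miR-27 and miR-24 points of Dgcr8_KO lie at 0.133%, below both Drosha_KO points.

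The Dlk1-Dio3 cluster, a large imprinted group on chromosome 12 expressed from the maternal allele, had 5 of 65 tested entries higher in Dgcr8_KO and none lower, near the 5.61% higher over all tested, with a median of 2.25, or 0 with undetected entries at their bound. The 5 were miR-127-5p, miR-136-5p, miR-341-3p, miR-434-3p and miR-673-5p. miR-127-5p had 190 and 341 counts (656 and 834 CPM) in Dgcr8_KO, against 0 and 4 counts (0 and 99.2 CPM) in Drosha_KO. For miR-127-5p the log2 fold change was 3.89 ± 0.71 SE (adjusted p = 0.00391 by edgeR). miR-136-5p had 522 and 682 counts (1803 and 1669 CPM) in Dgcr8_KO, against 0 and 15 counts (0 and 372 CPM) in Drosha_KO. For miR-136-5p the log2 fold change was 3.21 ± 0.72 SE (adjusted p = 0.0128 by edgeR, called in 19 of 22 alternatives). miR-434-3p had 679 and 1132 counts (2345 and 2770.1 CPM) in Dgcr8_KO, against 0 and 28 counts (0 and 695 CPM) in Drosha_KO (2.87, edgeR adjusted p = 0.04, called in 13 of 22 alternatives). miR-341-3p had 44 and 62 counts (152 and 152 CPM) in Dgcr8_KO, against 0 and 1 counts (0 and 24.8 CPM) in Drosha_KO (3.58, edgeR adjusted p = 0.0442, called in 14 of 22 alternatives), a ratio of 12.1 with a 95% counting interval from 2.13 to 483. Both Drosha_KO libraries were below both Dgcr8_KO libraries for each of the 5. The cluster's main product differed between the Drosha_KO replicates themselves: miR-127-3p had 51073 and 74209 counts (176394 and 181594 CPM) in Dgcr8_KO, against 4 and 3220 counts (101 and 79889 CPM) in Drosha_KO, and it was not called (2.16, edgeR adjusted p = 0.36). The result on the cluster turns on which Drosha_KO library is used: without replicate 1 there were 7 higher and 5 lower with a median of 1.26, and without replicate 2 there were 23 higher with a median of 7.43. Setting the cluster aside left the miR-290 to miR-295 share difference at -1.15 percentage points in place of -4.58, and that of the miR-183, miR-96 and miR-182 cluster at -3.17 in place of -7.62 (Dgcr8_KO minus Drosha_KO).

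Among other clusters, the miR-183, miR-96 and miR-182 cluster, best known from sensory organs, held 20.4 and 21.2% of the counts in Dgcr8_KO, against 31.3 and 25.6% in Drosha_KO and 14.8 and 14.1% in WT. None of its 6 tested entries was called (median -0.19, but 0.46 with TMM factors, 0.64 with the mirtron-based sizes, 0.09 with Dlk1-Dio3 out of the totals and 0.01 without Drosha_KO replicate 1). miR-182-5p, the most abundant miRNA of both mutants, had 193345 and 201596 CPM in Dgcr8_KO, against 299815 and 242545 CPM in Drosha_KO (-0.46, edgeR adjusted p = 0.226). The miR-23, miR-27 and miR-24 clusters held 0.133 and 0.133% of the counts in Dgcr8_KO, against 1.93 and 1.60% in Drosha_KO and 1.73 and 1.91% in WT. miR-24-3p made up most of the Drosha_KO share but little of the WT share, so these similar shares hold different members. The gap between the mutants was carried by miR-24-3p, with 2 of 9 tested lower (miR-24-3p and miR-27b-3p). The median over the 9 was -0.40, which moved to 0.00 with TMM factors and without Dgcr8_KO replicate 2 or Drosha_KO replicate 2, and to 0.16 with the mirtron-based sizes. The miR-17-92 cluster and its paralogs, which promote proliferation, held 2.14 and 2.07% of the counts in Dgcr8_KO, against 1.28 and 1.44% in Drosha_KO and 18.2 and 19.5% in WT, so both mutants had far less of them than WT. Of 26 tested, 5 of them undetected in both mutants, only miR-92a-3p was called. The median was 0.02, and 0.35 over the 12 tested with only the mutants' libraries: miR-17-5p had a log2 fold change of 0.24 and miR-93-5p of 0.02. In the miR-30 family 2 of 11 were higher, miR-30b-5p (1.86, edgeR adjusted p = 0.0119, called in 20 of 22 alternatives) and miR-30e-5p (1.26, edgeR adjusted p = 0.0163, called in 18 of 22 alternatives), with a median of 1.03, while the abundant miR-30a-5p was not called (0.49). In the miR-26 family miR-26b-5p was lower, with 815 and 920.1 CPM in Dgcr8_KO, against 4277 and 3349 CPM in Drosha_KO (-2.13, edgeR adjusted p = 0.00128, called in 21 of 22 alternatives), and miR-26a-5p was not called at -0.05. miR-191-5p was lower with 5671 and 5347 CPM in Dgcr8_KO, against 13591 and 13249 CPM in Drosha_KO (-1.28, edgeR adjusted p = 0.0117, called in 18 of 22 alternatives).

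The remaining family counts stand beside 5.61% higher and 8.32% lower over all tested. There was 1 higher and 1 lower of 10 in the let-7 and miR-98 family (median -1.03) and of 6 in the miR-181 family (median 1.13). The let-7 median was 1.01 without Drosha_KO replicate 1 and also 1.01 without Drosha_KO replicate 2, and the miR-181 median was 0 with undetected entries at their bound, -0.26 with DESeq2 and -0.10 with DESeq2 on column totals. There was 1 entry higher and none lower of 12 in the miR-15 and miR-16 family, of 5 in the miR-148 and miR-152 family (median 0.64) and of 6 in the miR-130 and miR-301 family (median 0.34). In the miR-15 and miR-16 family 4 of the 12 were undetected in both mutants and 3 in one, so their median of 0.00 rests on entries without counts, and it was 0.48 over the 3 entries tested with only the mutants' libraries. In the miR-26 family 1 of 4 was lower (median -1.08), in the miR-191 and miR-425 cluster 1 of 3 (median -0.67), and in the miR-200 and miR-141 family 3 of 8 (median -0.40, but 0.28 with TMM factors, 0.43 with the mirtron-based sizes and 0.99 without Drosha_KO replicate 1). The miR-191 and miR-425 median was 0.00 with TMM factors, with the mirtron-based sizes and without Drosha_KO replicate 1. None of 7 entries of the miR-10, miR-99, miR-100 and miR-125 families was called, nor any of 2 of the miR-302 and miR-367 cluster. Of 44 entries of the Sfmbt2 repeat group 2 were higher, miR-669a-5p and miR-669p-5p, and the median was 0.39. miR-451, which Argonaute 2 cuts without Dicer, and miR-1306, whose hairpin lies in the Dgcr8 transcript, had at most 3 counts in any of the 4 libraries and were not tested.

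Markers of the labelled cell type were present in both mutants. Embryonic stem cell miRNAs of the miR-290 and miR-302 clusters held 9.46 and 9.29% of the counts in Dgcr8_KO, against 9.85 and 8.99% in Drosha_KO. Of 5 tested 1 was higher and 1 lower, and miR-302d-3p had 2 counts over the Dgcr8_KO libraries and 0 in Drosha_KO. Fibroblast or feeder markers held 1.40 and 1.34% of the counts in Dgcr8_KO, against 1.34 and 1.59% in Drosha_KO, and none of 5 was called. Blood markers held 0.486 and 0.480% of the counts in Dgcr8_KO, against 0.567 and 0.352% in Drosha_KO, where miR-150-5p was lower (-2.05, edgeR adjusted p = 0.00686, called in 18 of 22 alternatives) and the other 3 were not called. Neural markers held 0.165 and 0.145% of the counts in Dgcr8_KO, against 0.157 and 0.318% in Drosha_KO, with miR-138-5p lower, miR-9-5p higher and 2 not called. Liver, gut and endoderm markers held 0.0190 and 0.0223% of the counts in Dgcr8_KO, against 0.0405 and 0.0174% in Drosha_KO, with none of 3 called. Muscle markers had 2 and 4 counts in Dgcr8_KO and 0 in both Drosha_KO libraries. Their part in the differences between the mutants was not tested.

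The WT libraries give a level to set beside each mutant, although both mutant comparisons with WT share those libraries and most entries differed from WT (73.4% in Dgcr8_KO and 57.8% in Drosha_KO). miR-3068-5p was above WT in both mutants, by a log2 fold change of 5.08 (SE 0.48, edgeR adjusted p = 1.67e-05) in Dgcr8_KO and 11.54 (SE 0.55, edgeR adjusted p = 5.98e-07) in Drosha_KO. miR-24-3p was 0.43 (SE 0.32, edgeR adjusted p = 0.239) from WT in Dgcr8_KO and 5.19 (SE 0.37, edgeR adjusted p = 9.63e-07) in Drosha_KO. miR-16-5p stood at -0.24 (SE 0.26, edgeR adjusted p = 0.406) in Dgcr8_KO and -1.85 (SE 0.27, edgeR adjusted p = 0.000119) in Drosha_KO. miR-301a-3p gave 0.02 (SE 0.31, edgeR adjusted p = 0.951) in Dgcr8_KO and -2.34 (SE 0.36, edgeR adjusted p = 0.000194) in Drosha_KO. Scaled by library totals, miR-24-3p passed the test against WT in Drosha_KO and missed it in Dgcr8_KO, as did miR-16-5p and miR-301a-3p in the opposite direction, and the direct contrasts above are the tests of those differences. With library sizes from mirtrons and capped hairpins miR-24-3p was -3.64 and miR-301a-3p -4.04 from WT in Dgcr8_KO, both called lower, so a direction relative to WT holds only for shares of the pool.

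The called entries were compared with all tested entries in features the contrast did not use, as a description. The comparison covered the 366 tested entries paired with a RefSeq hairpin, among them 18 of the 27 higher and 34 of the 40 lower calls. Median GC content of the mature sequence was 45.5% for 18 higher entries, 46.6% for 34 lower entries and 47.8% for 366 tested entries. A first base of U was present in 61.1% of higher, 61.8% of lower and 43.7% of all tested entries. The motif UGU, searched on the transcribed strand of the apical loop between the arms, occurred in 6 of 16 higher entries (37.5%), 12 of 29 lower entries (41.4%) and 122 of 330 tested entries (37.0%). Median loop length was 15.5 bases for higher, 17 bases for lower and 16 bases for all tested entries. Median hairpin length was 91.5 bases for higher, 81.5 bases for lower and 82.0 bases for all tested entries. Entries named as the 5p arm were 10 of 18 higher, 17 of 34 lower and 158 of 366 tested entries. No test was made of these features.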

How the data were processed

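Small RNA was sequenced from total RNA, and per the submitters' processing notes reads were aligned with Bowtie to mm10. The authors deposited 1 table of raw counts per mature miRNA (1907 entries, 10 libraries). The sources used here do not give the counting tool, the miRBase release or how reads matching several places were treated. Counts were tested with edgeR 4.0.16 (R 4.3.3, quasi-likelihood) with all 5 groups in 1 fit (5 residual degrees of freedom) and column totals as library sizes. filterByExpr (a minimum count of 10, equal to 38.54 CPM, and a minimum total of 15) kept 481 entries over all 5 groups, and an adjusted p (Benjamini-Hochberg) under 0.05 made a call. Standard errors were derived from fold changes and F values. For a genotype without any count, 3 counts summed over its libraries gave a bound (4.3 CPM in Dgcr8_KO and 37.6 CPM in Drosha_KO). Arm balance was tested with limma 3.58.1 on log2((5p + 0.5)/(3p + 0.5)). Ratios on 1 to 3 counts have exact 95% binomial intervals.

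The members and lists were chosen with earlier results of these data known. The rule for named entries took, of the calls whose replicates were separated and that reached 100 CPM, at most 15 at each end of the fold changes, both arms of their hairpins, the 5 most abundant per genotype and up to 4 members of each of 29 lists, 132 in all. Others named here, such as miR-324-5p and relatives or neighbours of called entries, were chosen after their values were seen. Positions came from RefSeq hairpins on GRCm38.p6 with GENCODE M21 hosts, and 393 tested entries matched. After the data were seen, entries in a snoRNA or scaRNA gene on the same strand were counted as a class. Alternatives were other scalings, filters, tools (DESeq2 1.42.0), a replicate block, leaving out each library in turn and, added after the data were seen, repeat counts divided by their common divisor. Data were simulated for this contrast over 481 entries, with changes placed only in entries averaging more than 100 CPM over the mutants. The test recovered 28.8% of 2-fold, 93.9% of 4-fold and 100% of 8-fold changes, with 1 false call among 283 unchanged entries. These rates do not cover scarcer entries. The simulation also gave both mutants the same spread. In the data, chi-square per degree of freedom between replicates was 3.88 in Dgcr8_KO and 31.8 in Drosha_KO, so the rates may not hold for this contrast.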

Additional observations from a re-analysis of the deposited data

How the results depend on the processing

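The limits are 2 libraries per genotype, an 8.75-fold gap in depth and a contrast of shares, in which an abundant group that changes moves all others. The median of all fold changes shifted by 0.64 with TMM factors, 0.81 with library sizes from mirtrons and capped hairpins, 0.28 with Dlk1-Dio3 out of the totals and -0.13 with DESeq2's size factors in edgeR. Among the 123 tested entries that the rule for named entries took, none with a call in either setting turned its sign between the mutants. Called entries outside that rule, such as miR-34a-5p and miR-324-5p, were not part of this check. The count of higher entries (27) moved to 49 with TMM factors and 68 with the mirtron-based sizes, and ran from 9 to 48 when single libraries were left out, with 9 without Dgcr8_KO replicate 1, 10 without Dgcr8_KO replicate 2 and 48 without Drosha_KO replicate 2. The count of lower entries (40) moved to 25, 20, 75 and 63 with TMM factors, the mirtron-based sizes, and DESeq2 with its own size factors and with column totals, and ran from 19 without Dgcr8_KO replicate 2 and 20 without Dgcr8_KO replicate 1 to 50 when single libraries were left out. The count of hairpins with a different arm balance (1) was 4 with a minimum of 50 counts per arm and ran from 0 to 18 when single libraries were left out. The cause of these shifts was not tested. Of the 27 higher calls 24 held under all 5 other scalings, and of the 40 lower calls 20.

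With Dlk1-Dio3 out of the totals the share differences (Dgcr8_KO minus Drosha_KO, percentage points) became -1.15 for miR-290 to miR-295, -3.17 for miR-183, miR-96 and miR-182, 1.27 for miR-17-92 and its paralogs and 0.45 for tRNA or rRNA entries, by the smaller totals alone. The labels do not say whether same-numbered replicates of the genotypes belong together. Deviations of same-numbered Dgcr8_KO and Drosha_KO libraries correlated at 0.0347, a value that cannot decide this. A fit with the replicate block gave 27 higher and 39 lower entries. Against WT, signs were checked only for the 15 highest and 15 lowest named entries and miR-16-5p, 62 fold changes over both mutants. The mirtron-based sizes turned the sign of 18 of these, counting only those with a call in either setting. In Dgcr8_KO against WT these were miR-127-5p -2.36, miR-34c-5p -3.56, miR-136-5p -2.24, let-7c-5p -1.83, miR-301a-3p -4.04, miR-24-3p -3.64, miR-3535 -0.96, miR-6239 -0.33, miR-503-5p -1.38, miR-146b-5p -3.48, miR-3062-5p -1.02, miR-8112 -0.37. In Drosha_KO against WT they were miR-6236 -1.28, miR-7a-5p -1.27, miR-29a-3p -1.32, miR-138-5p -1.70, miR-146b-5p -0.83, miR-200c-3p -2.78.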
